A study of Mus musculus with 22 samples.

Results

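The Rab GTPases transcribed in mpkCCD cells were described over 22 RNA-seq libraries in 10 groups. Members were the table entries named Rab plus a number (with an optional letter or digit) whose mean was at least 1 TPM over the 22 libraries. TPM is a transcript level corrected for length and scaled to a fixed total in each library, so levels can be compared between genes. Of 54514 entries, 59 carried such a name and 45 passed. The 14 that did not had means of 0.37 TPM or less. Rab40b (mean 3.72 TPM) lay just inside the limit and Rab26 (0.37 TPM) just outside it.

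mpkCCD is a mouse kidney cell line with features of the principal cell, the water-reabsorbing cell of the collecting duct. The cells were a secondary subclone grown on permeable supports, and every group was kept in a medium with dexamethasone, selenite and transferrin. Unsorted wild-type (WT) cells stayed without dDAVP or received it, with 3 libraries each. The protocol calls the untreated arm vehicle and the sample labels call it no treatment. dDAVP (desmopressin) is an agonist of the vasopressin V2 receptor. The GFP reporter lines C1, C11, C43 and C50 each represent 1 clone, all received dDAVP, and were divided into GFP-negative and GFP-positive cells with 2 libraries per fraction. No clone library therefore came from cells without dDAVP. The growth protocol names more than 1 dDAVP dose and duration, and also forskolin, an activator of adenylyl cyclase, without assigning them to libraries. The sample labels name dDAVP or no treatment. The labels do not say that replicates came from separate cultures, so all p-values measure the spread between these libraries, which may be technical.

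The GFP transcript read 1065 to 1567 TPM in the 8 GFP-positive libraries, 5.31 to 17.6 TPM in the 8 GFP-negative libraries and 0 to 0.79 TPM in WT cells. Aqp2, the water channel named in the series title, read 64.1, 74.9 and 68.4 TPM in WT control libraries and 2820.2, 3025 and 2759 TPM with dDAVP. Aqp2 ranged from 66.5 to 1679.8 TPM in GFP-negative and from 2008 to 7254 TPM in GFP-positive libraries. Sequencing depth is unknown because TPM keep none. Of 10 principal-cell markers 9 reached a mean of 1 TPM, as did 1 of 6 intercalated-cell, 1 of 5 proximal-tubule and 1 of 4 immune markers. None of 6 fibroblast, 3 endothelial and 2 thick-limb markers did. The libraries fell into 10 with at most 20250 genes detected and 12 with at least 23135. Replicate 1 of C50 GFP-negative stood apart: ribosomal-protein genes took 8.38% of its TPM against 3.88% to 6.17% elsewhere.

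Rab proteins are small GTPases of the Ras superfamily that sit on membranes in their GTP-bound form and recruit the motors, tethers and coats that move a vesicle. Exchange factors load them with GTP, GTPase-activating proteins switch them off, and GDP dissociation inhibitors extract them from the membrane. In principal cells, vasopressin raises cAMP through the V2 receptor and moves Aqp2-bearing vesicles to the apical membrane. Aqp2 retrieved from that membrane passes through early endosomes marked by Rab5 and through recycling endosomes marked by Rab11, the latter with the motor myosin Vb.

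Rab25 was the most abundant Rab transcript, with a mean of 521 TPM over the 22 libraries. Rab25 is an epithelial relative of Rab11 that works at apical recycling endosomes. It was followed by Rab1b (394 TPM), which acts between endoplasmic reticulum and Golgi, and Rab11a (379 TPM), the general recycling-endosome Rab. Rab24 (272 TPM), an atypical Rab linked to autophagy whose exons overlap those of Prelid1, and Rab20 (271 TPM), an endosomal Rab, were next. These 5 genes held 45.5% of the TPM summed over the 45 genes. Means were at least 100 TPM for 14 genes, from 10 to 100 TPM for 28 and from 1 to 10 TPM for 3 (Rab8b, Rab27a and Rab40b), with a median of 42.9 TPM. None of the 45 was at 0 in any library. The summed Rab level ran from 3751 to 3822 TPM in WT control libraries, from 3949 to 4025 TPM in WT dDAVP libraries and from 3524 to 4512 TPM in the clones.

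**Figure D1:**
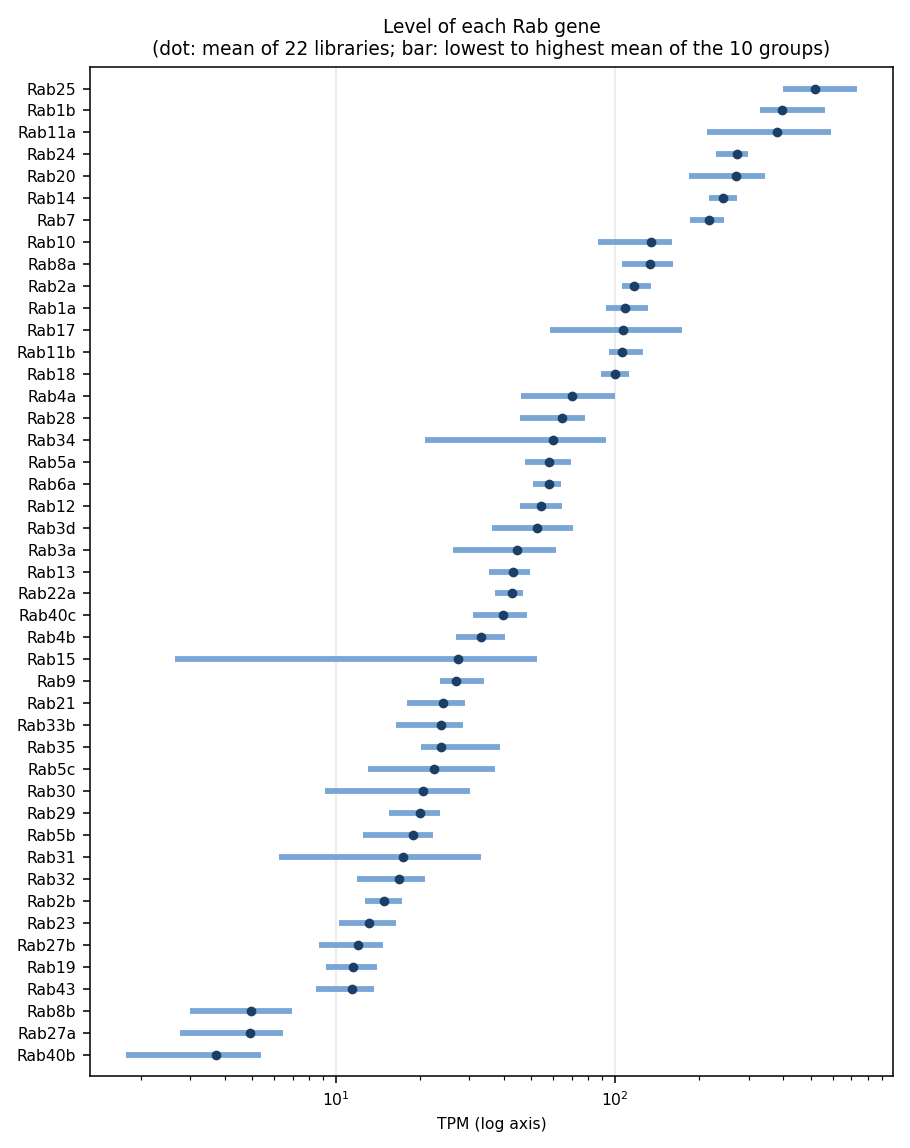
Level of each of the 45 Rab genes on a log axis of TPM. The dot is the mean of 22 libraries and the bar runs from the lowest to the highest mean of the 10 groups; Rab25 is at the top with 521 TPM and Rab15 has the longest bar, from 2.66 to 52.3 TPM.

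Over the 10 groups the highest mean was at least 2 times the lowest for 12 of the 45 Rab genes. The share over all genes was not computed, so this count does not set the Rab genes apart. Rab15, a Rab of early and recycling endosomes, spanned 19.7-fold, from 2.66 TPM in C43 GFP-negative to 52.3 TPM in C50 GFP-positive cells. Rab31 spanned 5.28-fold, Rab34 4.47-fold and Rab30 3.31-fold. Within subfamilies 1 gene usually dominated. Rab8a held 96.4% of the Rab8a and Rab8b total on average over the 22 libraries (range 94.1% to 98.7%), Rab2a 88.6% of Rab2 and Rab1b 78.0% of Rab1. In the Rab11 subfamily Rab25 held 51.9%, Rab11a 37.2% and Rab11b 10.9%. Rab5a held 59.1% of the Rab5 total, and the Rab5c share varied most between libraries, from 12.1% to 52.7%. Rab5c read 57.3 and 16.9 TPM in the C50 GFP-negative pair and 12.1 and 52.9 TPM in the C43 GFP-positive pair, so replicates of 1 group differed more than group means did.

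The first comparison asked which Rab transcripts differed between WT cells with and without dDAVP. Of the 45 genes, 6 passed the test (13.3%), 5 of them higher and 1 lower, where 8.88% of 13494 genes passed, 2.37% higher and 6.51% lower. The test was limma on log2(TPM + 1) at an adjusted p under 0.05, and a change is a difference of means on that scale with its standard error (SE). The 5 that rose were Rab11a, Rab4a, Rab3a, Rab17 and Rab25. The gene that fell was Rab27b, a Rab of regulated secretion. Over all tested genes the median change was -0.16, against -0.07 for the 45 Rab genes, of which 33 lay above the median gene.

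Rab11a, which carries recycling cargo including Aqp2 back to the apical surface, read 195, 217 and 225 TPM without dDAVP and 377, 348 and 328 TPM with it. The lowest dDAVP library lay above the highest control library by more than the spread within either group. The change was 0.72 (SE 0.084, limma adjusted p = 0.00473). Its share of the Rab11 subfamily rose from 28.3% ± 1.3 to 35.1% ± 1.7 (SD, n = 3 each). Its near relative Rab11b did not pass the test. It read 101, 105 and 101 TPM against 106, 103 and 104 TPM, a change of 0.03 (SE 0.064, limma adjusted p = 0.767).

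Rab25 read 414, 468 and 428 TPM in control libraries and 545, 539 and 551 TPM with dDAVP. The groups did not overlap, and the dDAVP libraries lay close together. The change was 0.32 (SE 0.067, limma adjusted p = 0.0319). Rab4a, which sorts cargo for fast recycling from early endosomes, read 45.6, 46.1 and 46.6 TPM against 70.6, 76.0 and 70.4 TPM. Its change was 0.64 (SE 0.072, limma adjusted p = 0.00415), and its relative Rab4b stayed at 31.0 ± 0.93 against 31.8 ± 1.9 TPM (SD, n = 3 each). Rab4a thereby took 69.5% of the Rab4 total with dDAVP and 59.8% without.

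Rab17, an epithelial Rab of apical recycling and transcytosis, read 65.4, 76.7 and 73.3 TPM without and 99.2, 102 and 92.9 TPM with dDAVP. Every dDAVP library was above every control library. The change was 0.45 (SE 0.086, limma adjusted p = 0.0254). Rab3a, a Rab of secretory vesicle docking, read 33.4, 35.5 and 33.6 TPM against 44.7, 55.1 and 51.1 TPM, a change of 0.54 (SE 0.097, limma adjusted p = 0.0208). The related Rab3d read 54.0, 54.4 and 48.4 TPM against 45.3, 53.5 and 45.1 TPM, and its change of -0.12 did not pass (limma adjusted p = 0.412). The groups of Rab3d overlapped, whereas those of Rab3a did not.

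Rab27b, which with Rab27a docks secretory vesicles and exosome-bearing endosomes, read 15.5, 14.5 and 14.2 TPM without and 10.6, 8.88 and 11.4 TPM with dDAVP. The change was -0.48 (SE 0.12, limma adjusted p = 0.0492). This call was lost whichever 1 of the 6 libraries was left out, with changes of -0.39 to -0.55 (limma adjusted p from 0.0571 to 0.137). Its relative Rab27a read 5.05, 6.88 and 3.98 TPM against 2.43, 2.18 and 3.71 TPM. The groups did not overlap, but the change of -0.74 (SE 0.24) did not pass (limma adjusted p = 0.0918). Rab8b, a ciliary and exocytic Rab, also missed the threshold at -0.59 (adjusted p = 0.0942, limma), and so did Rab23, a Rab of ciliary Hedgehog signalling, at -0.46 (adjusted p = 0.0714, limma). Both passed with the number of genes detected as a covariate (limma adjusted p = 0.0459 for Rab8b and 0.0366 for Rab23), where 8 Rab genes were called, 5 higher and 3 lower, and both passed without dDAVP replicate 2 (limma adjusted p = 0.0446 and 0.0309). In all 14 of the 45 genes had no overlap between control and dDAVP libraries, 6 higher and 8 lower, where 35.8% of all tested genes had none.

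**Figure D2:**
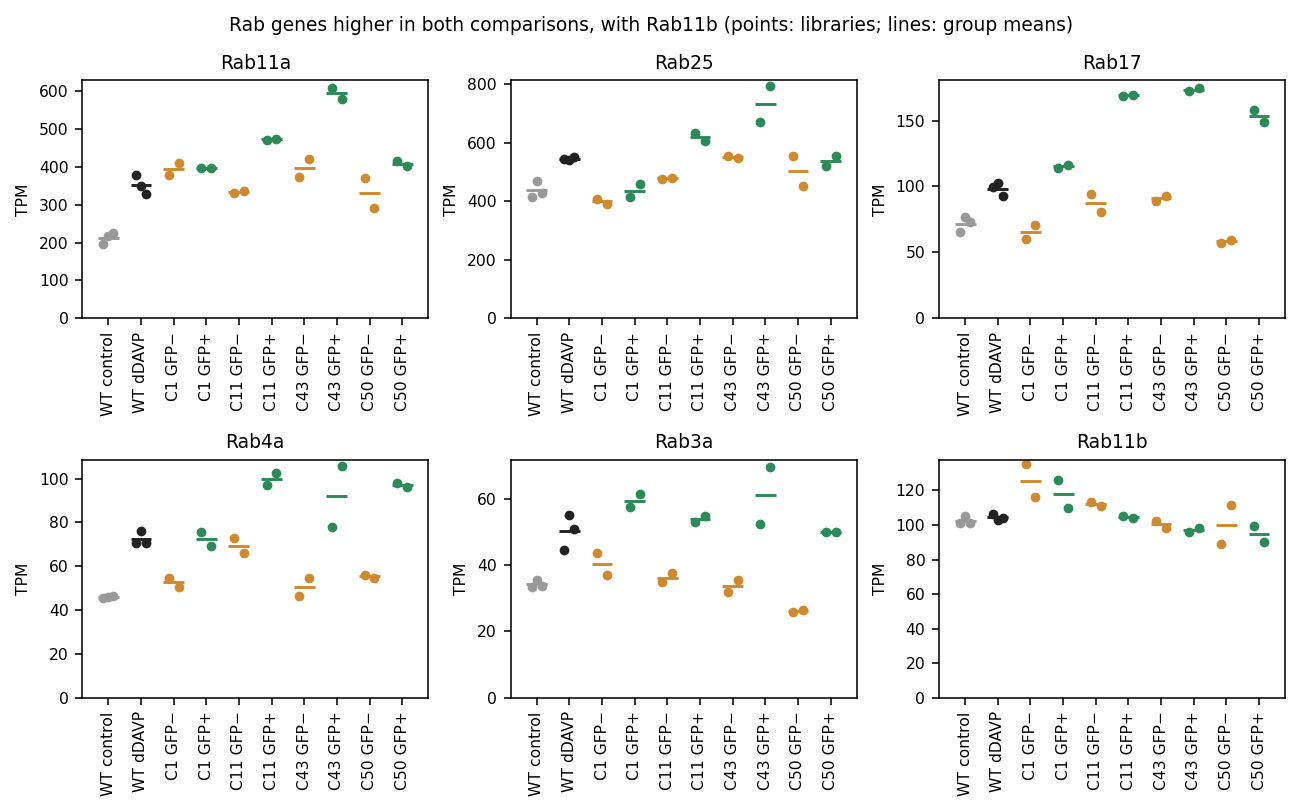
TPM of Rab11a, Rab25, Rab17, Rab4a, Rab3a and Rab11b in each of the 22 libraries (points) with the mean of each of the 10 groups (lines). The first 5 genes were higher with dDAVP in WT cells and in GFP-positive cells over all clones, while Rab11b stayed between 88.8 and 135 TPM.

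The genes that rose with dDAVP were looked up for the cAMP response element, the DNA motif read by the cAMP-activated factor CREB. The windows are the 250 bases before the RefSeq start site on mouse build GRCm38.p6, and 40 of the 45 genes had one, Rab4a not among them. The motifs were the full element TGACGTCA, which reads the same on both strands, and its 5-base core TGACG on either strand (read as CGTCA on the reverse). A full element contains both cores. The 4 windows below are those of the remaining genes that rose, 5′ to 3′ on the gene's own strand, with motif letters in capitals.
Rab11a, chr9:64737757-64738006, minus strand: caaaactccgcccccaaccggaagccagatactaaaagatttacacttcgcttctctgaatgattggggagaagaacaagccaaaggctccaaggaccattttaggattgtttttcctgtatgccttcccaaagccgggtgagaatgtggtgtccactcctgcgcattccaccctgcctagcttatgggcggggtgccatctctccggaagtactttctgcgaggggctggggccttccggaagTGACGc
Rab25, chr3:88548280-88548529, minus strand: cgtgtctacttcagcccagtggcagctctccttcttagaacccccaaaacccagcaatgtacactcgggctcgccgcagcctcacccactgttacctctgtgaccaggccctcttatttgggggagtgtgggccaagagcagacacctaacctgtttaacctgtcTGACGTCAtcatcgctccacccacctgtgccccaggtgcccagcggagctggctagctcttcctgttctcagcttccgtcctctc
Rab17, chr1:90967668-90967917, minus strand: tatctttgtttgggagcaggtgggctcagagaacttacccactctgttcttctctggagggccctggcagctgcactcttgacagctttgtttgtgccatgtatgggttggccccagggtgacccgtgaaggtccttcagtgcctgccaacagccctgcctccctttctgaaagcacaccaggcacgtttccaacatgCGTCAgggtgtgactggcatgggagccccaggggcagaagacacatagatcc
Rab3a, chr8:70754453-70754702, plus strand: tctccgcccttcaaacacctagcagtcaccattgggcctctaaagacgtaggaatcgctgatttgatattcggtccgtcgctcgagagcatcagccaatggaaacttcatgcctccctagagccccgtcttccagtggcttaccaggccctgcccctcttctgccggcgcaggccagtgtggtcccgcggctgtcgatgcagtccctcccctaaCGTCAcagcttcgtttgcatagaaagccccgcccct

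The Rab25 window held a full element whose first base lay 85 bases before the start site. Rab11a held a core 6 bases, Rab3a a core 36 bases and Rab17 a core 52 bases before it. A second start-site window listed for Rab3a held neither motif. Of the 40 Rab genes with a window, 2 held the full element (5.0%), Rab25 and Rab5a, against 3.16% of 9392 genes with a mean of at least 1 TPM and 1.77% of 27025 genes. A core was present in 22 of the 40 (55.0%), against 31.7% and 19.8% of those sets. Rab5a, with a full element 28 bases before its start, read 60.6, 51.6 and 53.4 TPM without and 52.3, 55.6 and 51.7 TPM with dDAVP, so the groups overlapped. A match describes the letters in these windows only.

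Of the 18 Rab genes listed for apical recycling and Aqp2 trafficking, 4 rose with dDAVP (Rab11a, Rab25, Rab4a and Rab17) and none fell, which is 22.2% called where 8.88% of all genes were called, 2.37% higher and 6.51% lower. Their median change was 0.02. The list was assembled with earlier results of these data known, so its count is no independent evidence. Members that act at other steps of the Aqp2 route did not pass. Rab5a, Rab5b and Rab5c, the early-endosome Rabs, had changes of -0.05, -0.18 and 0.26, the last with an SE of 0.35. Rab7, the late-endosome Rab, read 201 ± 10 against 214 ± 13.2 TPM (SD, n = 3 each), with a change of 0.09. Rab14, which links Golgi and endosomes, changed by -0.13 and Rab10, which carries basolateral and insulin-responsive vesicles, by -0.15. Rab8a (0.01), Rab18 (-0.01), Rab21 (0.05) and Rab35 (-0.14) did not pass either. Rab13, a tight-junction Rab, had a change of -0.34 (SE 0.14, limma adjusted p = 0.162).

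None of the 9 genes listed for endoplasmic reticulum and Golgi passed, nor did any of the 6 listed for endosomes and lysosomes (limma). Of all genes 8.88% were called. An unadjusted p under 0.05 was found for 0 of the 9 and 1 of the 6, where 4179 of 13494 genes had one (limma). Rab1b read 370.3, 375 and 349.8 TPM against 371, 418 and 370.7 TPM, with a change of 0.08. Rab20 read 299, 328 and 315 TPM without and 296, 293 and 279.7 TPM with dDAVP. Its groups did not overlap, yet the change of -0.12 did not pass (limma adjusted p = 0.266). Rab24 went from 299 ± 20.8 to 262 ± 2.5 TPM (SD, n = 3 each), a change of -0.19 that also missed the threshold (limma adjusted p = 0.127).

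The calls in WT cells were not equally firm. Rab11a and Rab4a passed with any 1 of the 6 libraries left out. Rab17 and Rab25 passed only when that library was dDAVP replicate 2. Otherwise the limma adjusted p ran from 0.0564 to 0.0791 for Rab17 and from 0.0542 to 0.129 for Rab25. Rab3a lost its call without any 1 control library or dDAVP replicate 3 (limma adjusted p from 0.0631 to 0.0885). With the 4 libraries of more genes detected alone, none of the 6 genes passed. The changes there were 0.71 for Rab11a (limma adjusted p = 0.0622) and 0.66 for Rab4a (limma adjusted p = 0.0823). The count of 6 fell to 2 without any 1 control library or dDAVP replicate 3, and to 3 without dDAVP replicate 1. Median-ratio scaling, which moves the median change of all genes from -0.16 to 0, turned the split of all calls from 26.7% to 59.6% higher. It called 5 Rab genes, all higher, and 5.61% of all genes. Under it Rab25 stayed called (limma adjusted p = 0.0487) and Rab27b did not (limma adjusted p = 0.183). Quantile normalization ended the calls of Rab25 (limma adjusted p = 0.171) and Rab27b (limma adjusted p = 0.291). The summed level of 6 proliferation markers ran from 1243 to 1267 TPM in control and from 856 to 1006 TPM in dDAVP libraries; its part in these changes was not tested.

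The second comparison asked which Rab transcripts differed between GFP-positive and GFP-negative cells of the same clone, all under dDAVP. Of the 45 genes, 13 passed (28.9%), 10 higher and 3 lower in GFP-positive cells, where 35.3% of 13113 genes passed, 12.1% higher and 23.2% lower. Of all calls 34.2% were higher, or 50.9% after median-ratio scaling, under which 12 Rab genes were called higher and 4 lower and 35.7% of all genes were called. The test was limma over the 16 clone libraries with the clone as covariate. Rab17, Rab30, Rab3a, Rab40b, Rab4a, Rab15, Rab20, Rab3d, Rab11a and Rab25 rose. Rab31, Rab34 and Rab28 fell. In sorted bulk cells, fewer cells of a kind and less RNA per cell cannot be told apart.

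Rab17 rose most. In C1 it read 60.4 and 71.0 TPM in GFP-negative against 114 and 116 TPM in GFP-positive cells. In C11 it read 94.0 and 80.9 against 169 and 169 TPM. The fractions were separate in the other clones too: C43 read 89.1 and 92.7 against 172 and 175 TPM, and C50 57.4 and 59.3 against 158 and 149 TPM. No GFP-negative library of any clone reached the lowest GFP-positive library. The change was 1.01 (SE 0.077, limma adjusted p = 2.57e-07).

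Rab3a ranged from 26.0 to 43.8 TPM (median 35.2) in the 8 GFP-negative and from 50.2 to 69.7 TPM (median 53.8) in the 8 GFP-positive libraries. The fractions did not overlap even across clones. The change was 0.71 (SE 0.078, limma adjusted p = 9.07e-06). Rab3d, the relative that did not pass with dDAVP, ranged from 27.0 to 66.04 TPM (median 45.3) against 55.1 to 71.7 TPM (median 59.0), with a change of 0.46 (SE 0.10, limma adjusted p = 0.00264). Its fractions overlapped across clones but in no clone. Rab27a (0.35, SE 0.30) and Rab27b (-0.06, SE 0.10) did not pass (limma adjusted p = 0.40 and 0.68).

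Rab4a ranged from 46.4 to 72.7 TPM (median 54.7) in GFP-negative and from 69.4 to 106 TPM (median 96.8) in GFP-positive libraries. Within each clone the fractions were separate. The change was 0.65 (SE 0.080, limma adjusted p = 2.2e-05). The Rab4a share of the Rab4 total was higher in GFP-positive cells of every clone, for example 76.9% against 59.1% in C50 (means of 2 libraries each). Rab4b had a change of -0.16 that did not pass (limma adjusted p = 0.170).

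Rab11a in C1 read 378 and 411 TPM in GFP-negative against 395 and 397 TPM in GFP-positive cells, which overlapped. In C11 it read 332 and 335 against 470.2 and 474 TPM, and in C43 372 and 419 against 607 and 579 TPM. In C50 it read 370.02 and 291 against 414 and 402 TPM. The change over the clones was 0.35 (SE 0.078, limma adjusted p = 0.00277). Rab25 had a change of 0.25 (SE 0.064, limma adjusted p = 0.00650) and a range of 391.56 to 556 TPM against 414 to 793 TPM. The call of Rab25 was lost without clone C11 (limma adjusted p = 0.0765) and without clone C43 (limma adjusted p = 0.0646). Its fractions were separate in 3 of 4 clones, C50 being the exception with 553 and 451 against 520.3 and 553 TPM. Rab11b again did not pass (-0.08, limma adjusted p = 0.354).

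Rab30, a Golgi Rab, ranged from 8.70 to 19.6 TPM (median 15.8) in GFP-negative and from 16.3 to 32.5 TPM (median 27.7) in GFP-positive libraries. In every clone the GFP-positive pair lay above the GFP-negative pair. The change was 0.76 (SE 0.10, limma adjusted p = 4.31e-05). Rab20 ranged from 175 to 279.95 TPM (median 213) against 225 to 352 TPM (median 306), with a change of 0.48 (SE 0.062, limma adjusted p = 3.97e-05). Rab20 was also separate in all 4 clones.

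Rab40b, a Rab with a SOCS box that joins a ubiquitin ligase, was scarce throughout: 1.77 to 4.03 TPM in GFP-negative and 3.1 to 6.76 TPM in GFP-positive libraries. Its change was 0.65 (SE 0.13, limma adjusted p = 0.0011). Rab15 ranged from 2.26 to 36.8 TPM against 4.12 to 54.7 TPM, a spread set mainly by the clones. Its change was 0.55 (SE 0.15, limma adjusted p = 0.00868), with the fractions separate and GFP-positive cells higher in 3 of 4 clones. Without clone C11 the change of 0.53 did not pass (limma adjusted p = 0.0640). In C50 its GFP-negative libraries differed, at 17.5 and 36.8 TPM, but both lay under the GFP-positive ones at 54.7 and 49.98 TPM.

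Rab31, which moves cargo between Golgi and endosomes, read 29.4 and 36.9 TPM in C1 GFP-negative against 10.6 and 9.69 TPM in C1 GFP-positive cells. Over the clones it ranged from 11.2 to 36.9 TPM (median 28.3) against 5.41 to 10.6 TPM (median 8.74). The change was -1.54 (SE 0.17, limma adjusted p = 7.23e-06). No GFP-positive library reached the lowest GFP-negative library, which was replicate 1 of C50.

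Rab34, a Rab of the Golgi and of cilium formation, read 94.6 and 91.2 TPM in C1 GFP-negative and 48.9 and 51.9 TPM in C1 GFP-positive cells. In C43 the values were 97.1 and 86.8 against 25.8 and 15.7 TPM. C11 read 78.1 and 75.7 against 32.8 and 33.7 TPM, and C50 80.4 and 77.5 against 22.6 and 26.0 TPM. The fractions were far apart in each clone, and farthest in C43. The change was -1.46 (SE 0.15, limma adjusted p = 4.94e-06). In unsorted WT cells Rab34 lay between these levels, at 64.9 ± 4.86 TPM without and 60.1 ± 5.75 TPM with dDAVP (SD, n = 3 each), and did not pass there (limma adjusted p = 0.463).

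Rab28, an endosomal Rab with a known role in photoreceptor cilia, ranged from 58.9 to 83.2 TPM (median 69.6) in GFP-negative and from 45.4 to 69.0 TPM (median 57.4) in GFP-positive libraries. It was lower in GFP-positive cells of every clone, with a change of -0.32 (SE 0.066, limma adjusted p = 0.00167). The call of Rab28 was lost both with the libraries of fewer genes detected (-0.37, limma adjusted p = 0.258) and with those of more (-0.23, limma adjusted p = 0.0812). The listed ciliary Rabs Rab12 and Rab23 did not pass, but both did without replicate 1 of C50 GFP-negative (limma adjusted p = 0.0192 and 0.0116). Rab10 had a change of -0.27 (limma adjusted p = 0.0634) that passed in 7 of 30 alternatives, at -0.37 without that library (limma adjusted p = 8.49e-05) and at -0.19 after median-ratio scaling (limma adjusted p = 0.0356). Rab43, a Golgi Rab, had a change of 0.32 (limma adjusted p = 0.0532) that also passed in 7 of 30 alternatives, among them median-ratio scaling (0.40, limma adjusted p = 0.0108) and quantile normalization (0.41, limma adjusted p = 0.00769).

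**Figure D3:**
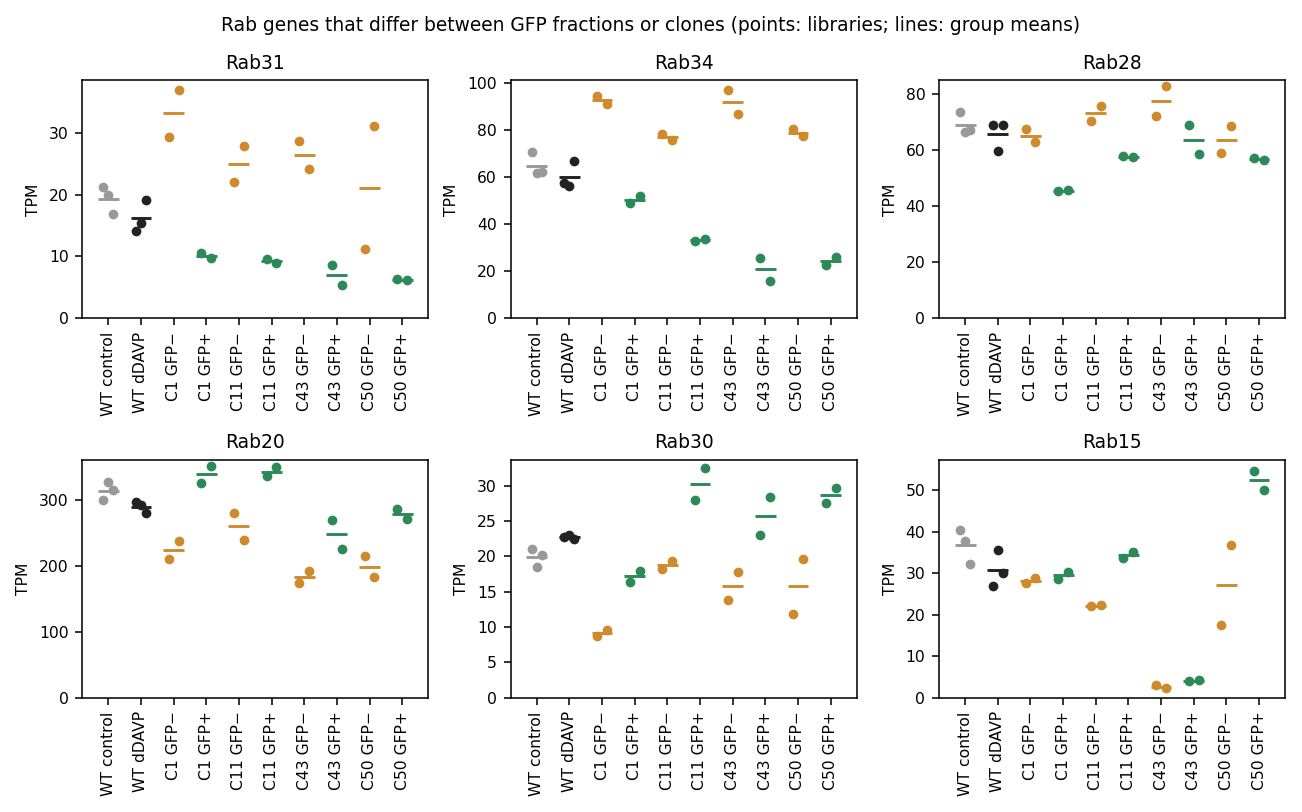
TPM of Rab31, Rab34, Rab28, Rab20, Rab30 and Rab15 in each of the 22 libraries (points) with group means (lines). Rab31, Rab34 and Rab28 were lower in the GFP-positive fraction of each clone, Rab20 and Rab30 higher, and Rab15 was lowest in clone C43.

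By function, 4 of the 18 apical recycling and Aqp2 genes rose and none fell (median change 0), which is 22.2% called where 35.3% of all genes were called, 12.1% higher and 23.2% lower. Of the 9 endoplasmic reticulum and Golgi genes Rab30 rose and Rab34 fell. Of the 6 endosome and lysosome genes Rab20 rose while Rab31 and Rab28 fell, and of the 4 secretion genes Rab3a and Rab3d rose. Over all 8 pairs of equal replicate number, 8 Rab genes were higher and 3 lower in the GFP-positive library each time, where 23.9% of all tested genes kept 1 sign. The numbers do not pair the libraries, so these matches are not repeated paired evidence. In every clone the fractions were separate in 1 direction for 7 higher and 3 lower Rab genes, against 18.9% of all genes. The median change was -0.06 over all genes and 0.01 over the 45 Rab genes.

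Rab17 and Rab34 passed in this comparison under all 30 alternative settings. Leaving out replicate 1 of C50 GFP-negative, the library that stood apart, raised the count from 13 to 20, 10 higher and 10 lower. The share of all genes called in that fit is not given here, so the 20 cannot be set against it. With the 7 libraries of fewer genes detected that could be compared, 2 genes remained, Rab17 and Rab34. Of the lost calls there, Rab31 changed by -1.43, Rab4a by 0.73 and Rab30 by 0.85, but Rab11a by 0.19 and Rab25 by 0.15. With the libraries of more genes detected, Rab28 lost its call (-0.23, limma adjusted p = 0.0812) and Rab10 gained one (-0.34, limma adjusted p = 0.0129). No other Rab gene changed its side of the threshold there. Principal-cell markers summed to 619.6 to 3031 TPM in GFP-negative and 3161 to 10796 TPM in GFP-positive libraries. Aqp2 is 1 of these 10 markers and read a median of 747 TPM in GFP-negative and 3759 TPM in GFP-positive libraries. Without overlap, Aqp2, Avpr2, Fxyd4, Gata3, Hsd11b2 and Scnn1g were higher in the GFP-positive fraction of 4 clones and Scnn1a of 3. Aqp3 was lower there in 3 clones, and Aqp4 was higher in 1 and lower in 1. Proliferation markers summed to 1051 to 1333 TPM in GFP-negative and 572 to 1018 TPM in GFP-positive libraries. Intercalated-cell markers, of which 1 of 6 reached a mean of 1 TPM, summed to 19.4 to 71.6 TPM and 44.7 to 110.07 TPM. The part of any of these in the changes was not tested.

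Within individual clones the calls rested on 2 libraries per fraction and a spread shared by all 16 libraries. Clone C1 had 7 Rab genes called, 4 higher and 3 lower, against 7.22% of all genes (2.31% higher, 4.91% lower). Clone C11 had 6, 4 higher and 2 lower, against 7.94% (2.23% higher, 5.7% lower). Clone C43 had 8, 6 higher and 2 lower, against 16.3% (4.29% higher, 12% lower). Clone C50 had 12, 10 higher and 2 lower, against 26.6% (12.8% higher, 13.8% lower). Rab17 and Rab3a were called higher in all 4 clones, as were 1.14% of all genes. After median-ratio scaling Rab3a did not pass in C1, with a change of 0.62 against 0.55 as deposited (limma adjusted p = 0.0540). Rab31 and Rab34 were called lower in all 4, as were 2.14% of all genes. Median-ratio scaling moved the higher share of all calls from 32% to 46.1% in C1, from 28.15% to 48.7% in C11 and from 26.3% to 50.1% in C43, with 5 (2 higher, 3 lower), 6 (4 higher, 2 lower) and 12 (10 higher, 2 lower) Rab genes called. Leaving out 1 library moved the counts of Rab genes to between 1 and 8 in C1, 2 and 13 in C11, 4 and 13 in C43 and 4 and 22 in C50.

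For Rab17 the C50 fractions differed by 1.38, those of C11 by 0.95, of C43 by 0.93 and of C1 by 0.81 (SE 0.11 each). For Rab34 the change was -2.13 in C43, -1.66 in C50, -1.18 in C11 and -0.87 in C1 (SE 0.18 each). For Rab11a it was 0.58 in C43, 0.50 in C11, 0.31 in C50 and 0.01 in C1 (SE 0.11 each). These orders were not shown to differ between clones. In a test of the interaction of fraction and clone none of the 45 Rab genes passed (limma), where 0.869% of all genes did. An unadjusted p under 0.05 was found for 1691 of all 13113 genes and for 4 of the 45 Rab genes. The 4 were Rab34 (limma adjusted p = 0.113), Rab17 (limma adjusted p = 0.244), Rab11a (limma adjusted p = 0.247) and Rab40c (limma adjusted p = 0.321). Some Rab genes passed without replicate 2 of C50 GFP-negative. That fit leaves replicate 1, the library that stood apart, alone in its group and assumes that it varies like the other libraries. Rab40c, a relative of Rab40b, was higher in C50 GFP-positive (54.2 and 42.8 against 26.6 and 39.6 TPM) and lower in C1 GFP-positive cells (30.6 and 31.5 against 38.0 and 37.3 TPM).

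The third comparison asked which Rab genes differed between the clones whatever the fraction. A moderated F-test over the 4 clones, with the fraction as covariate, called 15 of the 45 genes (33.3%), where 28% of all genes were called, a share close to that of the Rab genes. The largest F was that of Rab15 (99.1, limma adjusted p = 1.41e-07). In C43 it read 3.06 and 2.26 TPM in GFP-negative and 4.12 and 4.18 TPM in GFP-positive cells, whereas the mean of the fractions was 28.8 TPM in C1, 28.3 TPM in C11 and 39.7 TPM in C50. Unsorted WT libraries read 27.0 to 40.4 TPM, so C43 stood alone below the rest.

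Rab1b was next (F = 37.0, limma adjusted p = 2.54e-05). C1 libraries read 519, 544, 559 and 566 TPM, and the highest library of another clone read 381 TPM. Rab32, a Rab of lysosome-related organelles, had its lowest mean in C1 (12.3 TPM) and its highest in C43 (20.2 TPM), with F = 17.7 (limma adjusted p = 0.000666). Rab25 was lowest in C1 (417 TPM) and highest in C43 (642 TPM), with F = 15.5 (limma adjusted p = 0.00114). Rab30 was also lowest in C1 (13.1 TPM) and highest in C11 (24.5 TPM), with F = 14.6 (limma adjusted p = 0.00145). Rab35, an endocytic recycling Rab, was highest in C1 (34.4 TPM) and lowest in C50 (20.3 TPM; limma adjusted p = 0.00195).

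The other 9 genes called between clones were Rab20, Rab17, Rab13, Rab8a, Rab11b, Rab28, Rab3a, Rab4a and Rab24. Of these Rab20, Rab11b, Rab3a, Rab4a and Rab24 did not pass after median-ratio scaling (limma adjusted p from 0.0671 for Rab20 to 0.462 for Rab24). Others gained a call, so that scaling called 14 Rab genes, where 3839 of 13113 genes were called. Quantile normalization called 17, where 4351 of 13113 genes were called. Without clone C1 the count fell from 15 to 3, and without C50 it rose to 24. With 1 line behind each clone name, clonal differences and differences in handling cannot be told apart.

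The dDAVP and GFP comparisons use different libraries and share no control. All 5 Rab genes that rose with dDAVP also rose in GFP-positive cells, and they were 5 of the 10 that rose there. Over all genes tested in both, 74.8% of those higher with dDAVP were also higher in GFP-positive cells, and these were 15.4% of the latter. No Rab gene was called in opposite directions. Rab11a and Rab25 had the larger change with dDAVP (0.72 against 0.35 and 0.32 against 0.25), Rab17 and Rab3a between fractions (1.01 against 0.45 and 0.71 against 0.54), and Rab4a changed by 0.64 and 0.65. These differences in size were not tested. Rab31 and Rab34, with the largest falls between fractions, had changes of -0.25 and -0.11 with dDAVP that did not pass (limma adjusted p = 0.271 and 0.463). Rab27b, lower with dDAVP, read 9.45 to 13.3 TPM in GFP-negative and 8.56 to 14.6 TPM in GFP-positive libraries, which overlapped. In none of the dDAVP, GFP, interaction and clone tests were 24 of the 45 genes called, where 48.1% of 12765 genes tested in both sets of libraries were called in none. Among the 24 were Rab7, Rab14, Rab5a, Rab5b and Rab5c.

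**Figure D4:**
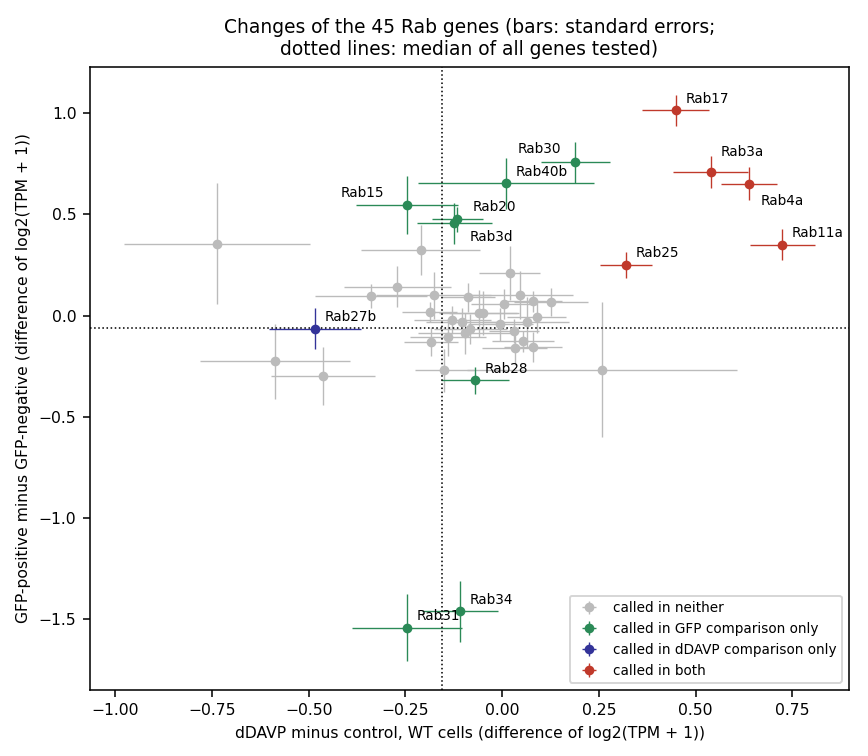
Change of each of the 45 Rab genes with dDAVP in WT cells (horizontal) and between GFP fractions over the clones (vertical), as differences of log2(TPM + 1) with standard errors. Rab11a, Rab25, Rab4a, Rab17 and Rab3a lie in the upper right, and Rab31 and Rab34 lie lowest at -1.54 and -1.46.

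Rab proteins act through regulators and effectors, and 132 of these were listed by role. With dDAVP 6 of the 119 tested passed (8.88% of all genes), all lower, with a median change of -0.26 against -0.16 over all genes. The largest fall was that of Myo5a, a vesicle motor, from 14.0, 11.2 and 12.1 TPM to 6.10, 6.78 and 5.76 TPM. Its groups did not overlap, and the change was -0.89 (SE 0.13, limma adjusted p = 0.0102). The others were Tbc1d31, Sh3tc2 (a Rab11 effector), Rin3 (a Rab5 exchange factor), Kif20a (a Rab6-binding mitotic kinesin) and Bicd2 (a dynein adaptor that binds Rab6). Without dDAVP replicate 2 the count was 21, and without control replicate 1 it was 2.

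Between fractions 35 of 118 regulators passed (35.3% of all genes), 19 higher and 16 lower in GFP-positive cells. Within C50, which holds the library that stood apart, 32 were called higher and 3 lower (26.6% of all genes). Within C1 the split was 1 higher and 1 lower (7.22%), within C11 1 and 4 (7.94%) and within C43 3 and 7 (16.3%). None of the 118 passed the interaction test (limma), where 0.869% of all genes did. Of the 13 Rab11 and recycling effectors tested, Rab11fip1, Myo5b and Myo5c rose while Rab11fip5, Sh3tc2 and Rab11fip2 fell. Rab11fip1, which tethers Rab11 and Rab25 to recycling endosomes, rose by 0.77 (SE 0.18, limma adjusted p = 0.00407). Myo5b, the myosin Vb motor that binds Rab11a, rose by 0.61 (SE 0.16, limma adjusted p = 0.00879), from 5.63 and 10.7 to 10.6 and 11.6 TPM in C1 and from 3.58 and 6.93 to 13.2 and 11.3 TPM in C50. In C1 the Myo5b fractions overlapped and in C50 they did not. Rab11fip2, which joins Rab11a to myosin Vb, was scarce at 1.52 to 4.84 TPM and had a change of -0.44 (limma adjusted p = 0.0347) that did not pass after median-ratio scaling (limma adjusted p = 0.0840).

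Among 39 GTPase-activating proteins 9 rose and 3 fell, 30.8% called where 35.3% of all genes were called, 12.1% higher and 23.2% lower. Within C50 14 were called higher and 0 lower, where 12.8% of all genes were called higher and 13.8% lower. Within C1 1 was called higher, within C11 1 lower, and within C43 1 higher and 1 lower. Tbc1d16 rose by 1.19 and Tbc1d10c by 1.04, and Tbc1d4 (AS160, which acts on Rab8a, Rab10 and Rab14) by 0.69 (limma adjusted p = 0.00103). The falls were Tbc1d31 (-1.03), Tbc1d7 (-0.25) and Tbc1d19 (-0.22), the latter pair not passing after median-ratio scaling (limma adjusted p = 0.294 and 0.136). Of 31 exchange factors tested Dennd2d rose (0.42), and 6 fell, the largest being Dennd5a (-1.22), Rin1 (-1.03) and Rin2 (-0.94), 22.6% called in all. Of 6 Rab3 and Rab27 effectors Mlph (0.82) and Exph5 (0.64) rose and Unc13d (-1.22) fell. Of 20 endosomal and Golgi effectors Rilp (0.49), Ocrl (0.48) and Bicd1 (0.34) rose and Kif20a (-1.34), Micall2 (-0.44) and Rabepk (-0.38) fell. Leaving out replicate 1 of C50 GFP-negative raised the count of 35 to 49.

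**Figure D5:**
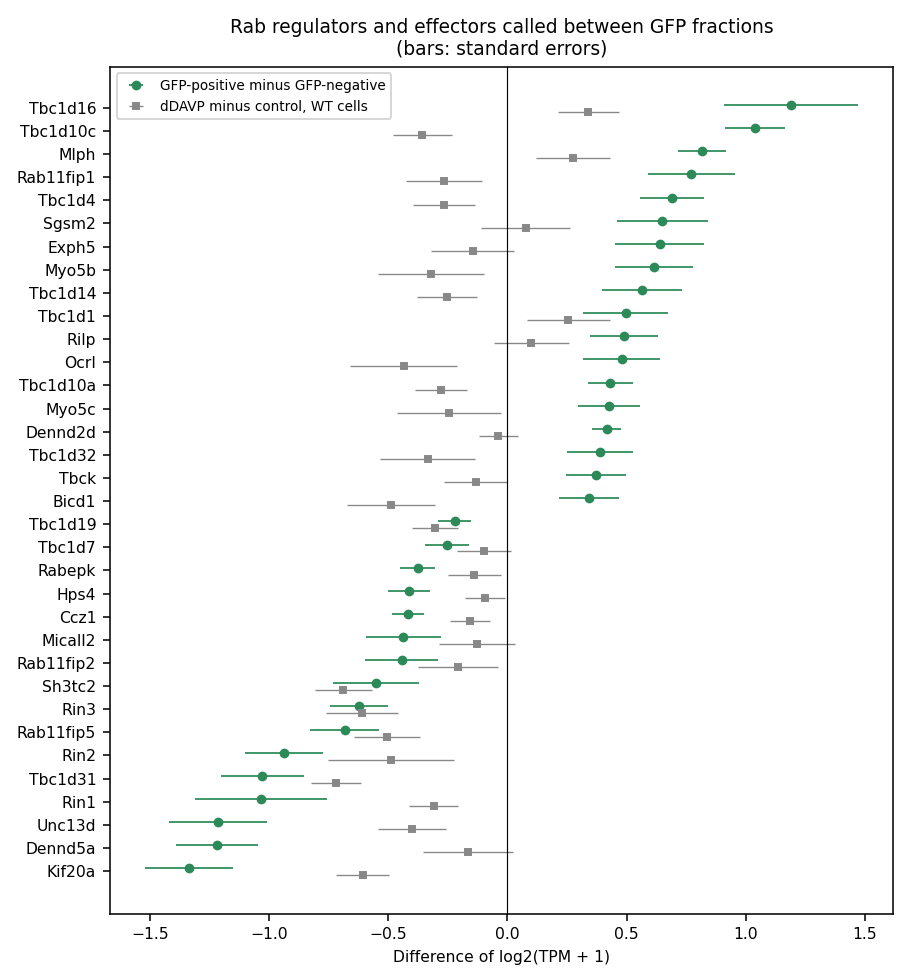
Change of 34 of the 35 Rab regulators and effectors called between GFP fractions (circles), with their change on dDAVP in WT cells (squares), as differences of log2(TPM + 1) with standard errors. Tbc1d16 tops the list at 1.19 and Kif20a ends it at -1.34. Kif20a, Tbc1d31, Rin3 and Sh3tc2 were called lower in both comparisons.

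The cDNA method does not mark strand, so reads from genes that overlap on opposite strands cannot be told apart by strand. In the GENCODE vM21 annotation 17 of the 45 Rab genes overlap an exon of another gene and 7 that of a protein-coding gene. The largest overlap of 1 exon of each gene was 830 bases for Rab24 and Prelid1, on opposite strands. It was 3980 bases for Rab43 and Gm45140 and 460 bases for Rab4b and Gm21983, both on the same strand. The levels of Rab24, Rab43 and Rab4b are therefore uncertain. Of the 5 genes that rose in both comparisons, Rab3a had a largest exon overlap of 29 bases, with Mpv17l2. Rab11a had one of 107 bases with a microRNA model on its own strand, and Rab25, Rab17 and Rab4a had none.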

How the data were processed

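RNA was read as SMART-Seq HT cDNA with Nextera XT libraries, a method that does not mark strand, per the labels' protocols. The authors deposited 1 table of TPM values per gene for 22 libraries; STAR and RSEM are named in the submitters' processing notes, and versions, genome build and annotation are not given in the sources used here. TPM keep no depth, so precision is judged from the spread between libraries. The table has 55415 lines, and 980 lines sharing 79 symbols were summed to reach 54514 entries; no Rab gene was among them. No pair of libraries was identical.

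Values were tested as log2(TPM + 1), with a pseudocount of 1, in limma 3.58.1 with a mean-variance trend (statmod 1.5.0, R 4.3.3; tables with Python 3.11.15, pandas 2.3.3). Genes with a mean of at least 1 TPM over the libraries of a comparison were kept, p-values were two-sided and adjusted by Benjamini-Hochberg over all of them, and an adjusted p under 0.05 was called. The log2 scale understates changes of low genes. The 6 WT libraries and the 16 clone libraries were fitted separately. The procedure was tested on simulated data.

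Named genes were the apical recycling and Aqp2 list, the 5 most abundant Rab genes, the 6 largest called rises and falls per comparison, genes called in both comparisons or in the interaction, the 5 largest F between clones, and the 3 largest called rises and falls per regulator list. The members and lists were chosen with earlier results of these data known. Rab12, Rab23, Rab27a, Rab40c and Rab43 were named after their values were seen. Promoter windows came from RefSeq (GRCm38.p6); Rab18, Rab27b, Rab2a, Rab30 and Rab4a had none in the table used. Alternatives were pseudocount, filter, scaling, trend, genes detected as covariate, a replicate block, and leaving out each library or clone. A further regulator is not reported here.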

Additional observations from a re-analysis of the deposited data

How the results depend on the processing

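Depth is unknown and groups hold 2 or 3 libraries. For the 45 Rab genes and Aqp2 taken singly, 1975 alternatives kept their side of the threshold, 56 lost the call and 34 gained one. The 1975 include genes that were not called and stayed so. Called genes kept their sign in all 524 alternatives run for them, of which Aqp2 held 15 with dDAVP and 30 between fractions. Genes not called changed sign in 105. Of these 1 passed the threshold with the opposite sign: Rab40c between fractions was 0.01 and became -0.17 without clone C50 (limma adjusted p = 0.0459). The 6 Rab genes called with dDAVP became 3 with genes of any TPM above 0 kept, 3 with no trend, 0 with the libraries of more genes detected (an alternative chosen after seeing the data), and 2 to 7 with 1 library left out. The 13 between fractions became 2 with the libraries of fewer genes detected (also chosen after seeing the data) and 13 to 20 with 1 library left out. With the libraries of more genes detected, likewise chosen after seeing the data, Rab28 lost its call between fractions and Rab10 gained one. Keeping any TPM above 0 gave 3 of the 7 in C1 and 2 of the 6 in C11, and quantile normalization 13 in place of 8 in C43. Leaving out 1 library gave 1 to 8 in C1, 2 to 13 in C11, 4 to 13 in C43 and 4 to 22 in C50. The interaction gave 0 to 14 and the clone test 10 to 24; without clone C1 the latter gave 3 and without C50 24. Regulators called with dDAVP, 6 in all, were 3 with any TPM above 0, 3 after quantile normalization, 28 with genes detected as covariate, 0 with the libraries of more genes detected and 2 to 21 with 1 library left out. The 35 regulators between fractions were 23 with any TPM above 0, 23 without clone C1, 22 without C43, 0 with the libraries of fewer genes detected and 26 to 49 with 1 library left out. The cause was not tested, and the share of all genes called is not given beside these counts. A WT set of fewer genes detected was not run, since it holds 1 library per group. Same-numbered libraries did not deviate together (correlations from -0.21 to 0.20), so the numbers do not pair them; with a replicate block 0 Rab genes and 0 regulators were called with dDAVP and 2 Rab genes in C11.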
